A study of Mus musculus with 18 samples.

Results

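Fatty acid desaturases and elongases set the chain length and the degree of unsaturation of the fatty acids in a cell. The set described here holds 9 genes, chosen by symbol: the stearoyl-CoA desaturases Scd1 and Scd2, the front-end desaturases Fads1, Fads2 and Fads3, and the elongases Elovl1, Elovl5, Elovl6 and Elovl7. They are 9 of the 24338 gene symbols listed in the files of all 18 samples.

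Stearoyl-CoA desaturases turn saturated palmitate and stearate into palmitoleate and oleate, the main monounsaturated fatty acids of stored fat. Front-end desaturases and elongases work in alternation on dietary linoleate and linolenate to make arachidonate and other long polyunsaturated fatty acids. Elongases run the rate-limiting step of a cycle at the endoplasmic reticulum, and desaturases draw electrons from cytochrome b5. In fat tissue, Scd1 is among the most abundant transcripts and is a textbook target of SREBP-1c, LXR and PPARγ.

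Polyadenylated RNA was sequenced from mouse inguinal white adipose tissue (iWAT), a subcutaneous fat depot, and from cells of the stromal-vascular fraction of that depot. The 6 groups of 3 samples were wild-type (WT) iWAT, NFIA-Tg iWAT, and WT and NFIA-Tg cultures at day 0 (before differentiation) and at day 7 (after it). NFIA-Tg carries a transgene for the transcription factor NFIA. The sources used here do not give its promoter. All cultures were grown in 10% fetal bovine serum with 1% penicillin-streptomycin. Those of day 7 had been induced for 48 hours with 0.5 mM isobutylmethylxanthine, 125 nM indomethacin, 1 μM dexamethasone, 850 nM insulin, 1 nM T3 and 1 μM rosiglitazone, and had then been kept in insulin, T3 and rosiglitazone. Rosiglitazone activates PPARγ, so both genotypes of day 7 carried that stimulus.

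Values are FPKM, which divide a gene's fragments by its length and by the depth of the library. Levels of different genes can thus be set side by side within a culture sample. The length used for the iWAT values is not known, so shares and ratios between genes in iWAT are descriptions. Culture libraries held 16772594 to 28625625 reads. The depth of the iWAT libraries is unknown. Changes are differences of log2(FPKM + 1) ± SE, a scale that understates the change of low genes. A call means an adjusted p under 0.05 by limma. Replicates are not stated to be separate animals or cultures, so the p-values reflect no more than the sample-to-sample spread, possibly a technical one. In bulk RNA, fewer cells of a type and less RNA per cell cannot be told apart.

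Nfia checked the labels. It was 3.96 ± 0.228 FPKM in WT and 141 ± 36.0 FPKM in NFIA-Tg iWAT, and 6.41 ± 0.104 against 11.9 ± 0.584 FPKM at day 0 (SD, n = 3). At day 7 it went against the label, since WT had 12.5 ± 0.518 FPKM and libraries labelled NFIA-Tg had 6.99 ± 0.475 FPKM. Directions in the cultures are therefore those between the libraries labelled NFIA-Tg and WT. Adipocyte markers, 10 genes such as Adipoq, Plin1 and Fabp4, summed to at least 25549 FPKM in every iWAT and day 7 library, but to 17.0 to 48.4 FPKM at day 0, where 6 of the 10 were under 1 FPKM in each genotype.

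RefSeq promoter windows on build GRCm38.p6 were available for Fads2, Fads3, Elovl1, Elovl5, Elovl6 and Elovl7, 6 of the 9 genes. The table had no entry for Scd1, Scd2 or Fads1. In iWAT every NFIA-Tg library was below every WT library in Fads2, Fads3, Elovl1 and Elovl5 and not in Elovl6. Of these, 4 windows are shown, those of Fads3, Elovl5 and Elovl6, which hold matches to the letters below, and that of Fads2, which holds none. Each covers the 250 bases before the start of the gene, on the plus strand for Fads3, Elovl5 and Elovl6 and on the minus strand for Fads2. Capitals mark matches, on either strand, to CCAAT, the box bound by NF-Y, or TTGGC, the element bound by NFI proteins.
Fads3, chr19:10041298-10041547: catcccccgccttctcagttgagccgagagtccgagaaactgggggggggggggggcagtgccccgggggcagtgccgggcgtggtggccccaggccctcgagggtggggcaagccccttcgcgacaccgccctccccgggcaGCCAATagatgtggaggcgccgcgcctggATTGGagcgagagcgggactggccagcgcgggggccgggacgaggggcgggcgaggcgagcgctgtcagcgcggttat
Fads2, chr19:10101504-10101753: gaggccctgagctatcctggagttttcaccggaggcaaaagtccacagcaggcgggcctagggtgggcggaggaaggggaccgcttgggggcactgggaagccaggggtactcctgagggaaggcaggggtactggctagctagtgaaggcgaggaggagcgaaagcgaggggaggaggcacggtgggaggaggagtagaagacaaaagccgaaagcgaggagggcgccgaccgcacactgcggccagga
Elovl5, chr9:77917115-77917364: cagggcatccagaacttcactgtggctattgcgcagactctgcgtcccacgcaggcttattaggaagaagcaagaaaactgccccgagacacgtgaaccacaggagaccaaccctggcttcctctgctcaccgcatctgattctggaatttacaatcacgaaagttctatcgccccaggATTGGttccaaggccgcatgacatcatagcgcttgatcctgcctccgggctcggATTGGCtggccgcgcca
Elovl6, chr3:129532136-129532385: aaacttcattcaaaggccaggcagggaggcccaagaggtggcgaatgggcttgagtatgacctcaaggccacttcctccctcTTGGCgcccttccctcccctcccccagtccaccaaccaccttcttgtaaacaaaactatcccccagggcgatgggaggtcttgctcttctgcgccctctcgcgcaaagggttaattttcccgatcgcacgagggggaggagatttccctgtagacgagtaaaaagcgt

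Both letter strings sat in overlapping form in the windows of Fads3 and Elovl5. In Fads3 the CCAAT matches began 106 and 78 bases before the start and the TTGGC match 107 bases before it. In Elovl5 the CCAAT matches began 71 and 17 bases before the start and the TTGGC match 16 bases before it. Elovl6 held a TTGGC match 168 bases before its start and no CCAAT. Fads2 held neither.

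Over all windows matched, CCAAT occurred in 3 of the 6 genes (Elovl1, Elovl5 and Fads3) and in 33.8% of all 32851 RefSeq windows of that length. TTGGC occurred in 4 of the 6 (those and Elovl6) and in 41.5% of all windows. The paired NFI site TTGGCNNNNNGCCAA occurred in 0 of the 6 and in 0.0365% of all windows, and the sterol regulatory element TCACNCCAC in 0 of the 6 and in 1.05%. The E-box CACGTG occurred in Elovl5 and in 6.02% of all windows. These matches describe letters and are not binding sites.

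Levels of the 9 genes ran from 0.0370 FPKM (Elovl7 at day 0) to 12692 FPKM (Scd1 at day 7). Scd1 was by far the most abundant in fat tissue and in day 7 cultures. WT iWAT libraries had 5559, 4970 and 3676 FPKM of it and WT day 7 libraries 4145, 3793 and 2877 FPKM, and these ranges overlapped. At day 0 it was only 28.3 ± 1.47 FPKM in WT. Scd2, the form also prominent in brain and in preadipocytes, was highest at day 7 and lowest in iWAT. Fads3, a relative that places an unsaturation in the sphingoid base of ceramides, was highest in iWAT and lowest at day 0, with 343 ± 23.4 FPKM in WT iWAT and 31.7 ± 2.15 FPKM in WT day 0 cultures.

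**Figure D1:**
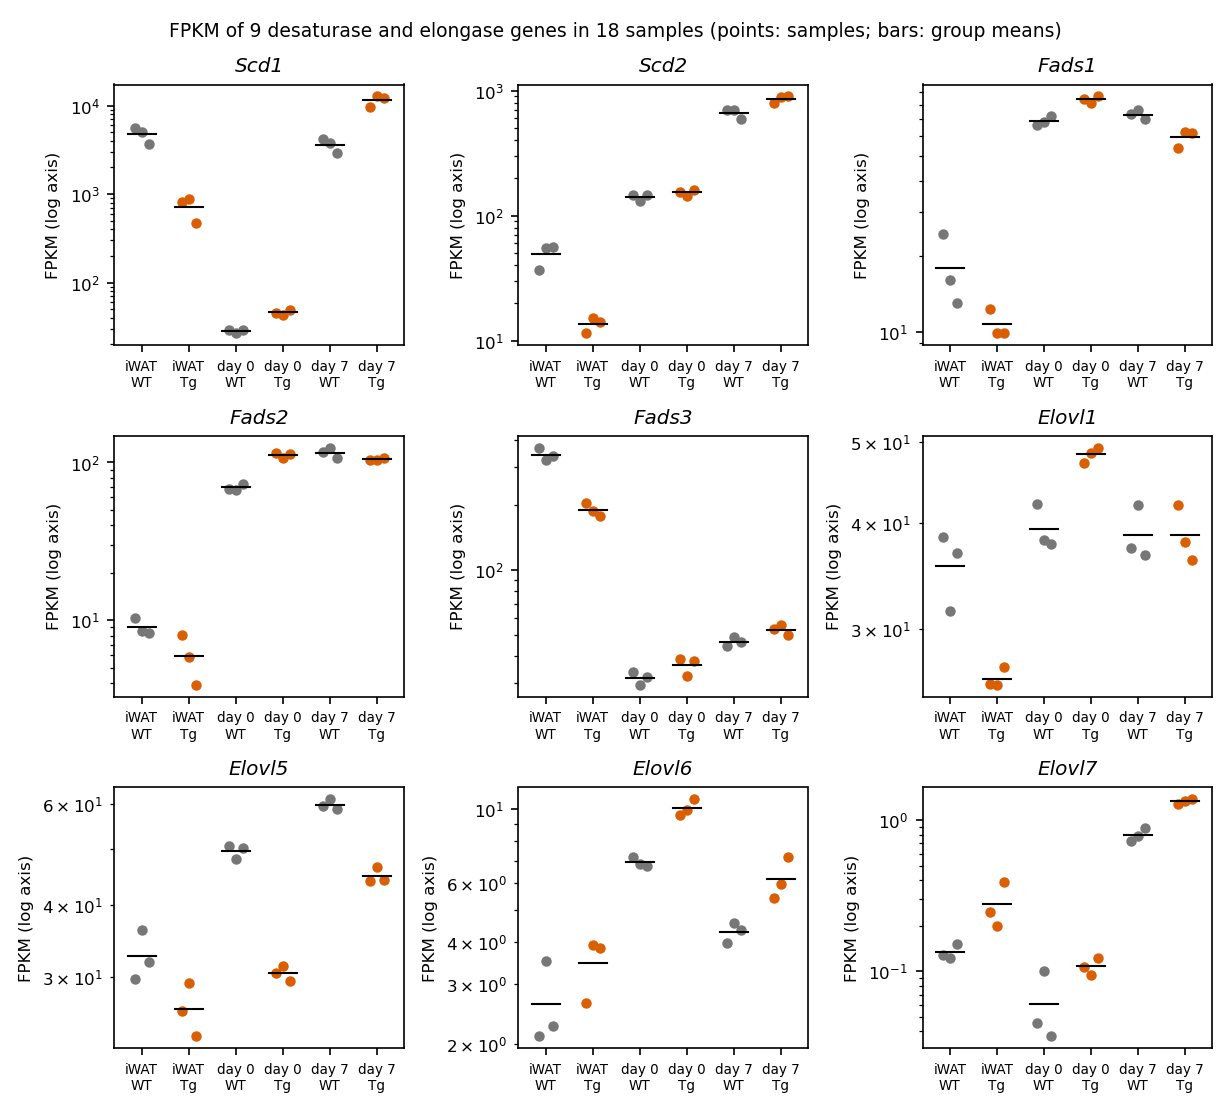
FPKM of each of the 9 genes (log axis, a panel per gene) in the 18 samples, with points for samples and bars for means of 3 samples, WT in grey and NFIA-Tg in orange. Scd1 and Scd2 were lower in NFIA-Tg iWAT than in WT iWAT and higher in the libraries labelled NFIA-Tg than in WT at day 7, while Elovl5 was lower with the label NFIA-Tg in all 3 settings.

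The iWAT and culture tables were made differently, so the order of levels across them is a description with no test. From the highest to the lowest group mean the ratio was 406 for Scd1, from day 7 NFIA-Tg to day 0 WT, and 63.6 for Scd2, from day 7 NFIA-Tg to NFIA-Tg iWAT. It was 7.89 for Fads1 and 19.4 for Fads2, both lowest in NFIA-Tg iWAT, and 10.8 for Fads3. The elongases varied less. The ratio was 1.85 for Elovl1, 2.26 for Elovl5 and 3.83 for Elovl6, but 21.8 for Elovl7, which was under 0.2 FPKM in every day 0 library.

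Some neighbours in that order did not differ beyond their ranges. For Scd1 these were WT iWAT and WT day 7. For Scd2, Fads3 and Elovl7 they were the day 0 genotypes. For Fads1 they were WT day 7 and WT day 0, and for Fads2 WT day 7, day 0 NFIA-Tg and day 7 NFIA-Tg in turn. Elovl1 had 3 such pairs, joining WT day 0, both day 7 groups and WT iWAT. Elovl5 had WT iWAT next to day 0 NFIA-Tg, and Elovl6 had WT day 0 next to day 7 NFIA-Tg and the iWAT genotypes next to each other.

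The gene that led in FPKM within each kind of enzyme was not the same in all settings. The iWAT and culture values were made differently, so this too is a description. Scd1 made up 98.9 ± 0.425% of the summed FPKM of Scd1 to Scd4 in WT iWAT and 98.0 ± 0.826% in NFIA-Tg iWAT. At day 0 Scd2 led instead, with 83.2 ± 0.158% in WT and 76.9 ± 0.378% in the libraries labelled NFIA-Tg. At day 7 Scd1 led again, with 84.0 ± 1.41% in WT and 92.2 ± 0.655% in the libraries labelled NFIA-Tg. The ratio of Scd1 to Scd2 in FPKM was thus 102 ± 44.0 in WT iWAT, 54.1 ± 19.2 in NFIA-Tg iWAT, 5.42 ± 0.558 in WT day 7 and 13.3 ± 1.21 in day 7 NFIA-Tg (SD, n = 3).

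Fads3 took 92.8 ± 1.37% of the summed front-end desaturases in WT iWAT and 92.0 ± 0.993% in NFIA-Tg iWAT. In the group means of the cultures it took 15.6 to 24.4%, and this gap is a description, since the values were made differently. Fads2 was the leading front-end desaturase at day 7 and in day 0 NFIA-Tg cultures. Among elongases, Elovl1 and Elovl5 together held most of the FPKM in iWAT and at day 0. At day 7 Elovl3, a family member of brown and beige fat that is outside the 9, took 50.3 ± 0.622% in WT and 69.6 ± 1.31% in the libraries labelled NFIA-Tg.

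**Figure D2:**
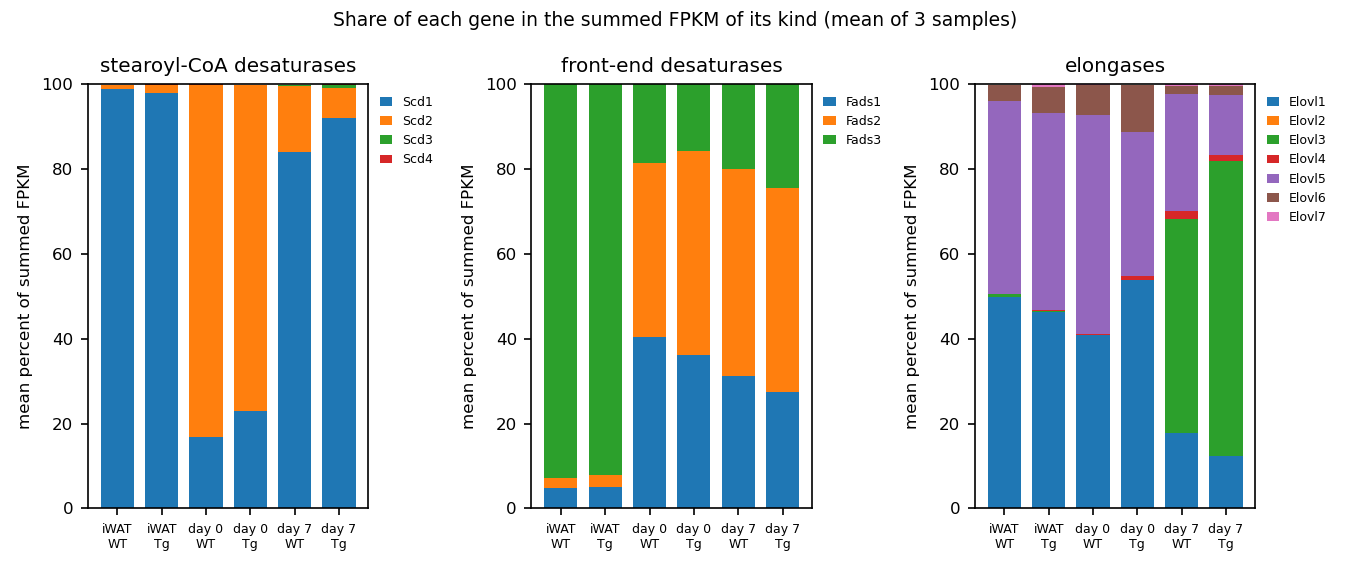
Mean percent of summed FPKM (3 samples a group) taken by each gene of the stearoyl-CoA desaturases, the front-end desaturases and the elongases, in the 6 groups. Scd2 leads at day 0 and Scd1 elsewhere, Fads3 leads in both iWAT groups, and Elovl3 leads at day 7.

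In iWAT, NFIA-Tg libraries had less Scd1, Scd2, Fads3 and Elovl1 RNA than WT libraries. The largest difference was in Scd1, the main enzyme of oleate synthesis. It was 812, 883 and 468 FPKM in the 3 NFIA-Tg libraries, each below the lowest WT library at 3676 FPKM. The mean was 6.57 times lower (log2 change −2.75 ± 0.27, adjusted p = 0.00114).

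Scd2 moved the same way. WT iWAT had 36.8, 54.9 and 56.3 FPKM of it and NFIA-Tg iWAT 11.4, 15.2 and 14.1 FPKM, so the groups did not overlap. The mean was 3.64 times lower in NFIA-Tg (log2 change −1.77 ± 0.18, adjusted p = 0.0013). Scd2 can share reads with Scd1, which stood at 65.3 to 151 times its FPKM in WT iWAT. The part of shared reads in this difference was not tested. Scd1 and Scd2 kept their calls in iWAT under all 15 alternatives each, with adjusted p of at most 0.0126 and 0.0121.

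Fads3 stood at 368, 322 and 338 FPKM in WT iWAT and at 205, 187 and 179 FPKM in NFIA-Tg iWAT. The groups did not overlap, and the mean was 1.80 times lower in NFIA-Tg (log2 change −0.84 ± 0.11, adjusted p = 0.00338). Fads1, the desaturase that makes arachidonate, was 24.6, 16.1 and 13.0 FPKM in WT against 12.3, 9.88 and 9.83 FPKM in NFIA-Tg iWAT. Fads2, which opens the polyunsaturated pathway, was 10.3, 8.54 and 8.35 FPKM in WT against 8.10, 5.85 and 3.89 FPKM in NFIA-Tg iWAT. Every NFIA-Tg value of these genes lay below every WT value, but neither passed the test (Fads1 −0.65 ± 0.21, adjusted p = 0.0855, and Fads2 −0.58 ± 0.22, adjusted p = 0.123). Their 95% intervals were −1.14 to −0.17 for Fads1 and −1.07 to −0.08 for Fads2.

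Elovl1, which extends saturated and monounsaturated chains to very long ones, was 38.6, 31.4 and 36.9 FPKM in WT against 25.8, 25.7 and 27.0 FPKM in NFIA-Tg iWAT. All 3 NFIA-Tg libraries were lower than all 3 of WT (log2 change −0.43 ± 0.11, adjusted p = 0.0388). This call was lost without replicate 1 (adjusted p = 0.0881) or 3 (0.13) of WT and without replicate 1 (0.0741), 2 (0.122) or 3 (0.0769) of NFIA-Tg, and with the replicate number as a block (0.0565), no filter (0.0548) or no trend (0.0574).

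Elovl5, the elongase of polyunsaturated chains, was 29.8, 36.2 and 31.9 FPKM in WT against 26.2, 29.3 and 23.7 FPKM in NFIA-Tg iWAT. The groups did not overlap but the difference was not called (log2 change −0.30 ± 0.12, adjusted p = 0.142). Elovl6, which extends palmitate to stearate, was 2.1, 3.53 and 2.25 FPKM in WT against 2.64, 3.93 and 3.84 FPKM in NFIA-Tg iWAT, with overlap (log2 change 0.31 ± 0.20, adjusted p = 0.334). Elovl7, an elongase of long saturated chains, was at 0.123 to 0.152 FPKM in WT and 0.199 to 0.392 FPKM in NFIA-Tg iWAT. It was under the filter of 1 FPKM in 3 samples and was not tested, and without that filter its log2 change was 0.17 ± 0.07 (adjusted p = 0.218).

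In all, 4 of the 8 genes tested in iWAT were called lower and 0 higher, where 5.44% of the 12396 genes tested were called lower and 5.96% higher. The groups did not overlap, with NFIA-Tg below WT, in 7 of the 8, against 13.9% of all genes tested, and 0 of the 8 had NFIA-Tg wholly above WT, against 20.5%. The median log2 change was −0.61 over the 8 and 0.05 over all genes tested.

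Markers of other cells moved with this comparison. Endothelial markers (7 genes) summed to 442 to 532 FPKM in WT and 302 to 365 FPKM in NFIA-Tg iWAT, with 4 of 7 called lower. Skeletal muscle markers (6 genes) summed to 124 to 183 FPKM in WT and 13.1 to 41.9 FPKM in NFIA-Tg iWAT, with 1 of 3 tested called lower. That gene, Acta1, made up most of the sum (135 ± 41.3 FPKM in WT and 22.1 ± 10.9 FPKM in NFIA-Tg). Tnnt3 and Mylpf were not called (adjusted p = 0.721 and 0.381). Macrophage markers summed to 491 to 624 and 407 to 513 FPKM with 0 of 8 called. Markers of thermogenic fat cells (6 genes) summed to 39.6 to 108 FPKM in WT and 738 to 1053 FPKM in NFIA-Tg, with 3 of 4 tested called higher. Most of the sum was Cox8b, at 44.4 ± 23.7 FPKM in WT and 758 ± 162 FPKM in NFIA-Tg. Ucp1 was not called (log2 change 0.44 ± 0.33, adjusted p = 0.418). Elovl3 and Dio2 were under the filter, and Elovl3 was lower by value (0.148 against 0.572 FPKM). The part of all these markers in the result was not tested.

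The summed adipocyte markers overlapped, at 31650 to 36931 FPKM in WT and 30352 to 41308 FPKM in NFIA-Tg iWAT. Most of the sum was Fabp4, at 20330.5 ± 968 FPKM in WT and 23043 ± 5101 FPKM in NFIA-Tg. Of these markers, Plin1 was called higher (log2 change 0.49 ± 0.13, adjusted p = 0.0447), and Adipoq (−0.46 ± 0.14, adjusted p = 0.076) and Fabp4 (0.16 ± 0.27, adjusted p = 0.74) were not called. Scd1 stood at 1.63 ± 0.337 times the FPKM of Adipoq in WT and at 0.346 ± 0.123 times in NFIA-Tg iWAT (SD, n = 3), and these ranges did not overlap. Mammary epithelial markers were at or near 0, with Krt5, Krt8, Krt14, Epcam, Csn3 and Wap listed at 0 in all 6 iWAT libraries and the sum at most 2.04 FPKM.

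At day 0, before induction, most of the 9 genes were higher in the libraries labelled NFIA-Tg, and Elovl5 was lower. Scd1 was 28.9, 26.6 and 29.3 FPKM in WT against 45.6, 43.0 and 49.5 FPKM with the label NFIA-Tg (log2 change 0.68 ± 0.13, adjusted p = 0.000605). Fads2 was 68.2, 67.1 and 73.2 FPKM in WT against 115, 106 and 114 FPKM with the label NFIA-Tg (log2 change 0.68 ± 0.06, adjusted p = 4.65e-07). Both genes were thus separated between genotypes, each with a mean about 1.6 times higher (1.63 for Scd1 and 1.61 for Fads2). Fads1 was 66.6, 68.2 and 72.2 against 84.8, 81.6 and 86.6 FPKM (log2 change 0.29 ± 0.06, adjusted p = 0.000763), a call lost with all 18 samples in 1 fit (adjusted p = 0.139).

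Among the elongases at day 0, Elovl6 was 7.18, 6.84 and 6.75 FPKM in WT against 9.58, 9.93 and 10.7 FPKM with the label NFIA-Tg (log2 change 0.48 ± 0.08, adjusted p = 0.000177). Elovl1 was 42.2, 38.2 and 37.8 against 47.2, 48.5 and 49.2 FPKM (log2 change 0.29 ± 0.07, adjusted p = 0.00197). Both were higher in each library labelled NFIA-Tg than in any of WT. Elovl5 went the other way, at 50.7, 48.0 and 50.3 FPKM in WT and 30.5, 31.4 and 29.6 FPKM with the label NFIA-Tg. Its mean was 1.63 times lower (log2 change −0.69 ± 0.04, adjusted p = 1.47e-08).

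Scd2 did not pass at day 0 (131 to 146 against 144 to 162 FPKM, log2 change 0.13 ± 0.08, adjusted p = 0.169). Elovl7 did not either, at 5 to 12 reads in WT and 12 to 19 reads with the label NFIA-Tg (log2 change 0.06 ± 0.06, adjusted p = 0.363). A voom fit to the recovered reads called Elovl7 higher (log2 change 0.92 ± 0.36, adjusted p = 0.0363). Fads3 was called higher although its groups overlapped (29.4 to 33.7 against 32.3 to 38.8 FPKM, log2 change 0.19 ± 0.07, adjusted p = 0.0356). That call was lost without WT replicate 2 (adjusted p = 0.145) or 3 (0.0642) and without NFIA-Tg replicate 1 (0.136) or 3 (0.12).

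In all, 6 of the 8 genes other than Elovl7 were called higher at day 0 and 1 lower, where 28.1% of the 12553 genes tested were called higher and 34.9% lower. Every library labelled NFIA-Tg was above every WT library in 5 of these 8 and below in 1, against 31.6% and 38.6% of all genes. Their median log2 change was 0.29, and −0.03 over all genes. Adipocyte markers were also higher with the label NFIA-Tg at day 0, with 5 of 9 tested called higher and a sum of 37.2 to 48.4 FPKM against 17.0 to 19.6 FPKM. Preadipocyte markers (8 genes) summed to 1624 to 1944 FPKM in WT and 2565 to 3126 FPKM with the label NFIA-Tg. Of 7 tested, 4 were called higher and 1, Pdgfrb, lower (log2 change −0.20 ± 0.05, adjusted p = 0.00486). Most of the sum was Ly6a, at 1240 ± 161 FPKM in WT and 2141 ± 305 FPKM with the label NFIA-Tg. The part of these markers in the differences was not tested.

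At day 7, after differentiation, the stearoyl-CoA desaturases were higher in the libraries labelled NFIA-Tg, the opposite direction to iWAT. Scd1 was 9521, 12692 and 12235 FPKM there and 4145, 3793 and 2877 FPKM in WT, with no overlap. The mean was 3.19 times higher (log2 change 1.68 ± 0.13, adjusted p = 9.96e-08). Scd2 was 695, 696 and 593 FPKM in WT against 799, 891 and 899 FPKM with the label NFIA-Tg. It was 1.31 times higher, again without overlap (log2 change 0.39 ± 0.08, adjusted p = 0.000439).

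The front-end desaturases differed little at day 7. Fads1 was lower with the label NFIA-Tg, at 54.1, 62.6 and 61.7 FPKM against 73.4, 76.2 and 70.3 FPKM in WT (log2 change −0.30 ± 0.06, adjusted p = 0.000334). Fitted on all 18 samples together, this call was lost (adjusted p = 0.0907). Fads3 was slightly higher, at 53.2, 55.7 and 50.3 FPKM against 44.4, 48.9 and 46.6 FPKM (log2 change 0.18 ± 0.07, adjusted p = 0.0323). The groups of both genes were separate.

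The Fads3 call at day 7 was lost without WT replicate 1 (adjusted p = 0.111) or 3 (0.0636), without NFIA-Tg replicate 1 (0.0668) or 2 (0.111), and under TPM scaling (0.192). Fads2 overlapped, at 107 to 124 FPKM in WT and 103 to 107 FPKM with the label NFIA-Tg (log2 change −0.13 ± 0.06, adjusted p = 0.041). Its call was lost without replicate 1 or 2 of either genotype at day 7 (adjusted p of 0.0841 to 0.187), and also without WT replicate 1 (0.0508) or NFIA-Tg replicate 3 (0.0511) of day 0, with the replicate block (0.0633) and without a filter (0.0574). With median-of-ratios scaling the Fads2 difference was 0.00 (adjusted p = 0.957).

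The elongases split at day 7. Elovl5 was lower in every library labelled NFIA-Tg, at 44.1, 46.5 and 44.2 FPKM against 59.5, 61.0 and 58.7 FPKM in WT (log2 change −0.40 ± 0.04, adjusted p = 6.16e-07). Elovl6 was higher in every such library, at 5.43, 5.96 and 7.16 FPKM against 3.996, 4.57 and 4.35 FPKM (log2 change 0.43 ± 0.08, adjusted p = 0.000236). Elovl7 was also higher, at 1.28, 1.34 and 1.37 FPKM against 0.732, 0.781 and 0.886 FPKM, and without overlap (log2 change 0.37 ± 0.06). Elovl7 passed the filter of the culture fits only through the 3 libraries labelled NFIA-Tg at day 7, so its day 7 values and its changes with differentiation are descriptions, with no test, and the counts over the cultures leave it out.

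Elovl1 overlapped at day 7, at 36.7 to 42.1 FPKM in WT and 36.2 to 42.1 FPKM with the label NFIA-Tg, and its difference was within −0.14 to 0.14 (95% interval of the log2 change, adjusted p = 0.978). In all, 4 of the 8 genes other than Elovl7 were called higher at day 7 and 3 lower, where 29.8% of the 12553 genes were called higher and 51.1% lower. Every library labelled NFIA-Tg was above every WT library in 4 of these 8, against 29.8% of all genes, and below in 2, against 51.4%. The median log2 change was 0.09 over the 8 genes and −0.17 over all genes tested.

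At day 7 the summed adipocyte markers overlapped, at 25549 to 29907 FPKM in WT and 26168 to 29830 FPKM with the label NFIA-Tg. Most of the sum was Fabp4, at 22169 ± 2243 FPKM in WT and 25679 ± 1813.5 FPKM with the label NFIA-Tg. Among these markers Adipoq was 1295 ± 26.8 FPKM in WT and 258 ± 17.9 FPKM with the label NFIA-Tg, while Plin1 and Fabp4 were not called (adjusted p = 0.164 and 0.19). Of the 9 adipocyte markers tested, 4 were called lower and 0 higher, where 51.1% of all genes tested were called lower and 29.8% higher. Thermogenic markers summed to 111 to 130 FPKM in WT and 1061 to 1108 FPKM with the label NFIA-Tg, with 5 of 5 tested called higher. Preadipocyte markers summed to 616 to 741 FPKM and 179 to 244 FPKM, with 6 of 7 tested called lower. Their part in the differences was not tested.

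The genotype differences of iWAT and day 7 were then compared directly, with a contrast of the NFIA-Tg to WT change in iWAT minus that at day 7. Scd1 differed by −4.42 ± 0.35 (adjusted p = 1.12e-06) and Scd2 by −2.16 ± 0.21 (adjusted p = 5.79e-06) on the log2 scale. In both, all 3 NFIA-Tg libraries were below WT in iWAT and all 3 were above WT at day 7. Fads3 lay the same way by value and differed by −1.03 ± 0.11 (adjusted p = 9.74e-06). Its change was −0.84 ± 0.11 in iWAT and only 0.18 ± 0.07 at day 7, where its call was lost under several alternatives. Elovl1 differed by −0.43 ± 0.12 (adjusted p = 0.0118), being lower in NFIA-Tg iWAT and overlapping at day 7.

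The contrast did not pass for the other 4 genes tested, and its 95% intervals bound how far their differences could lie apart. Fads1 gave −0.35 with an interval of −0.89 to 0.18 (adjusted p = 0.241), and it was lower with the label NFIA-Tg in both settings by value. Fads2 gave −0.44 with an interval of −0.97 to 0.08 (adjusted p = 0.141). These differences passed without WT iWAT replicate 3 for Fads1 (−0.55, adjusted p = 0.0416) and without NFIA-Tg iWAT replicate 1 for Fads2 (−0.66, adjusted p = 0.00886). Elovl5 gave 0.11 with an interval of −0.16 to 0.37 (adjusted p = 0.484) and Elovl6 −0.12 with −0.61 to 0.37 (adjusted p = 0.672). Elovl7, described without a test, gave −0.20.

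In all, 4 of the 8 genes other than Elovl7 were called lower in this contrast and 0 higher, where 18.5% of the 13101 genes tested were called lower and 35.8% higher. The median was −0.44 over the 8 and 0.18 over all genes. Median-of-ratios scaling moved the median of all genes from 0.18 to 0.00 and the split of all calls from 4690 higher and 2430 lower to 3305 and 3325. Under it Scd1, Scd2, Fads3 and Elovl1 were still called lower, and Fads2 joined them (−0.66, adjusted p = 0.0354).

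**Figure D3:**
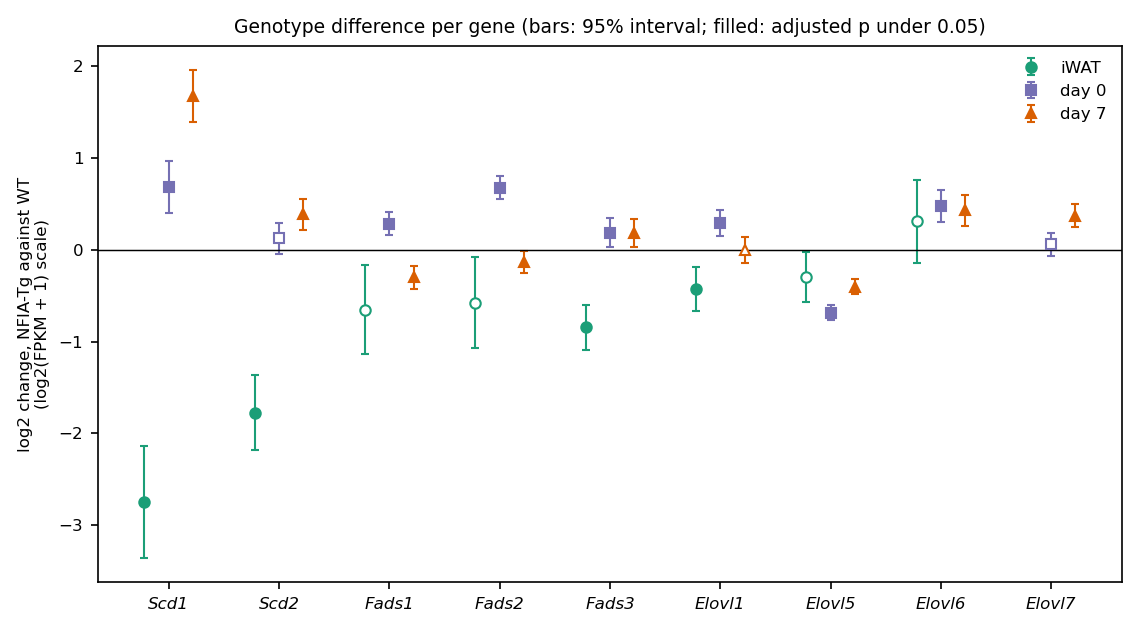
Log2 change from WT to NFIA-Tg of each of the 9 genes on the log2(FPKM + 1) scale in iWAT (circles), at day 0 (squares) and at day 7 (triangles), with 95% intervals and filled marks for an adjusted p under 0.05. Scd1 lies at −2.75 in iWAT and at 1.68 at day 7, and Elovl5 lies below 0 in all 3 settings, while the marks of Elovl7 are a description.

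Between day 0 and day 7 Scd1 rose more than any of the other 8 genes. Differentiation cannot be told apart here from the induction mix, insulin, T3 and rosiglitazone that only day 7 cultures received. From day 0 to day 7 the mean of Scd1 rose 128 times in WT (log2 change 6.93 ± 0.13, adjusted p = 9.79e-14) and 249 times in the libraries labelled NFIA-Tg (7.92 ± 0.13, adjusted p = 1.56e-14). Scd2 rose 4.70 times in WT (2.22 ± 0.08, adjusted p = 2.25e-11) and 5.62 times with the label NFIA-Tg (2.48 ± 0.08, adjusted p = 3.8e-12). Elovl7 was higher at day 7 by value in both, by 0.76 ± 0.06 in WT and 1.07 ± 0.06 with the label NFIA-Tg. Elovl6 fell in both, by 0.58 in WT and 0.63 with the label NFIA-Tg (adjusted p = 1.62e-05 and 6e-06).

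The polyunsaturated enzymes moved less and partly apart. Fads2 rose by 0.72 ± 0.06 in WT (adjusted p = 7.18e-08) and stood at −0.09 ± 0.06 with the label NFIA-Tg (adjusted p = 0.138). Fads1 stood at 0.09 ± 0.06 in WT (adjusted p = 0.177) and fell by 0.50 with the label NFIA-Tg (adjusted p = 2.43e-06). Fads3 rose by 0.54 ± 0.07 in WT and by 0.54 ± 0.07 with the label NFIA-Tg, and Elovl5 rose by 0.26 ± 0.04 and 0.55 ± 0.04. Under TPM scaling the rise of Elovl5 in WT was no longer called (0.09, adjusted p = 0.0799). Elovl1 stood at −0.03 ± 0.07 in WT (adjusted p = 0.717) and fell by 0.31 with the label NFIA-Tg (adjusted p = 0.000582).

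In WT 5 of the 8 genes other than Elovl7 were called higher at day 7 and 1 lower, where 46.2% of the 12553 genes tested were called higher and 35.4% lower. With the label NFIA-Tg 4 were called higher and 3 lower, where 45.7% and 41.5% of all genes were. TPM scaling moved the median of all genes from 0.09 to −0.06 in WT and from 0.05 to −0.18 with the label NFIA-Tg. The split of all calls went from 5796 higher and 4450 lower to 4932 and 5836 in WT, and from 5741 and 5209 to 4911 and 6780 with the label NFIA-Tg.

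The genotype by differentiation contrast, the change of the libraries labelled NFIA-Tg minus that of WT, tested these differences. Scd1 (0.99 ± 0.18, adjusted p = 0.000385) and Elovl5 (0.28 ± 0.05, adjusted p = 0.000435) moved further up with the label NFIA-Tg. Fads2 (−0.81 ± 0.08, adjusted p = 1.29e-06), Fads1 (−0.58 ± 0.08, adjusted p = 2.88e-05) and Elovl1 (−0.29 ± 0.09, adjusted p = 0.0141) moved further down. At day 0 both Fads1 and Fads2 were higher with the label NFIA-Tg, and at day 7 neither was. Elovl5 was lower with that label at both times, and its contrast says that the gap was smaller at day 7.

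Elovl7, described without a test, gave 0.31 ± 0.08, and −0.19 ± 0.38 in the voom fit to recovered reads. The contrast of Elovl1 was not called with median-of-ratios scaling (−0.19, adjusted p = 0.0834). Scd2 passed narrowly (0.26 ± 0.11, adjusted p = 0.0439). Its call was lost with the replicate block (adjusted p = 0.0667), with TPM scaling (0.16) and with any of 7 libraries left out, namely WT 1 and 3 and NFIA-Tg 1 and 2 of day 0 and WT 3 and NFIA-Tg 2 and 3 of day 7 (0.0609 to 0.107). Fads3 (−0.01 ± 0.10, adjusted p = 0.957) and Elovl6 (−0.05 ± 0.11, adjusted p = 0.706) did not pass. In all, 3 of the 8 other than Elovl7 were called higher and 3 lower, where 29.5% and 42.6% of the 12553 genes were.

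The other desaturases and elongases of these families were examined beside the 9. At day 7 Scd3, a stearoyl-CoA desaturase of skin and the neighbour of Scd2 in the genome, was 16.2, 14.8 and 13.9 FPKM in WT against 92.2, 107 and 110 FPKM with the label NFIA-Tg (log2 change 2.7 ± 0.07, adjusted p = 5.67e-12). It was listed at 0 in all 6 iWAT libraries. Scd1 to Scd4 are related neighbours that can share reads, so Scd3 is uncertain. The same limit holds for Scd2, above all in iWAT, where Scd1 stood at 33.1 to 151 times its FPKM. The level of Scd3 at day 7 was 0.390 to 0.484% of that of Scd1 in WT and 0.840 to 0.969% with the label NFIA-Tg. The part of shared reads was not tested for Scd2 or Scd3. Of the skin and sebaceous markers, 2 of 3 tested, Krt79 and Mc5r, were called higher at day 7, where 29.8% of all genes were. Their sum was 14.1 to 17.5 FPKM in WT and 43.3 to 49.1 FPKM with the label NFIA-Tg. Most of that gap was Krt79, at 1.92 ± 0.0502 against 28.8 ± 1.06 FPKM. Krt10 was not called (adjusted p = 0.467), and Awat2 was lower by value (1.05 FPKM in WT against 0.584 FPKM). The part of these markers in the Scd3 difference was not tested.

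Elovl3, which serves very long chains in brown fat, was 110, 113 and 105 FPKM in WT against 210, 236 and 209 FPKM with the label NFIA-Tg at day 7 (log2 change 0.99 ± 0.06, adjusted p = 7.38e-09). In iWAT it was at most 0.863 FPKM. Fads6, a desaturase relative of unclear substrate, was also higher at day 7, at 2.46 ± 0.178 against 0.151 ± 0.0414 FPKM (log2 change 1.59 ± 0.07, adjusted p = 6.06e-10). Degs1, the desaturase that completes ceramide synthesis, was lower, at 53.7 ± 0.936 against 79.5 ± 3.68 FPKM (log2 change −0.56 ± 0.04, adjusted p = 3.74e-08).

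Scd4 and Elovl4 were not called between genotypes at day 7 (adjusted p = 0.183 and 0.765). Elovl4 was higher with the label NFIA-Tg at day 0 (0.766 ± 0.119 against 0.294 ± 0.0512 FPKM, adjusted p = 0.000767), and so was Fads6 (adjusted p = 0.0325). Elovl2 stayed under 0.2 FPKM in every library, and Degs2 under 0.2 FPKM in every culture. In iWAT, Fads6, Degs1 and Degs2 were tested and 0 of 3 were called.

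Other genes of the pathway were counted in lists, beside shares over all genes tested of 5.96% called higher and 5.44% lower in iWAT, 28.1% and 34.9% at day 0 and 29.8% and 51.1% at day 7. A count near such a share is not a result about its list. Among the enzymes that supply palmitate, in iWAT 1 of 10 fatty acid synthesis genes was called, with Acacb, a mitochondrial acetyl-CoA carboxylase that restrains fat oxidation, at 54.8 ± 20.9 FPKM in NFIA-Tg and 22.5 ± 2.87 FPKM in WT (log2 change 1.19 ± 0.23, adjusted p = 0.0169). Fasn, the palmitate synthase, stood at 112 ± 28.3 against 155 ± 38.4 FPKM and was not called (−0.46 ± 0.23, adjusted p = 0.224). At day 7, 6 of 10 were called lower with the label NFIA-Tg and 2 higher, with a median of −0.82 against −0.17 over all genes, and the count of lower calls is near the share over all genes. Fasn was 697 ± 41.2 FPKM in WT and 91.5 ± 3.97 FPKM with the label NFIA-Tg (−2.92 ± 0.05, adjusted p = 6.42e-13), and Thrsp, a lipogenic cofactor, was higher (0.77 ± 0.10, adjusted p = 9.9e-06).

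**Figure D4:**
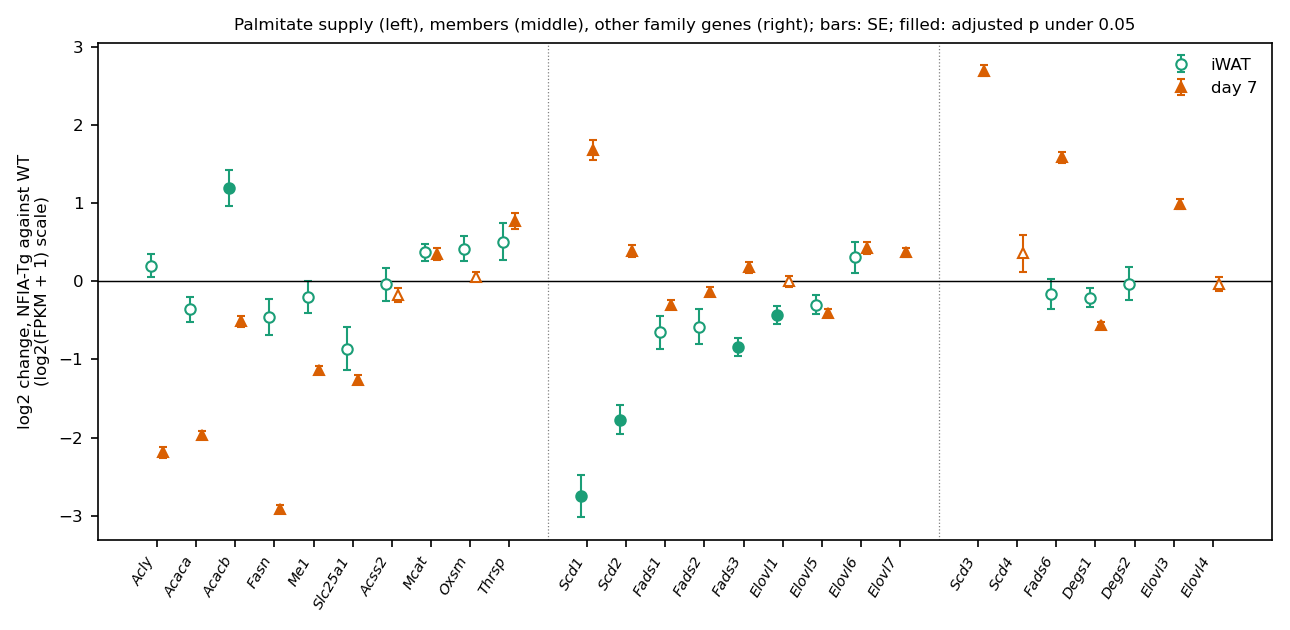
Log2 change from WT to NFIA-Tg ± SE on the log2(FPKM + 1) scale in iWAT (circles) and at day 7 (triangles) for genes of palmitate supply (left), the 9 desaturases and elongases (middle) and the other family genes (right), with filled marks for an adjusted p under 0.05. At day 7 Fasn lies at −2.92 while Scd1 lies at 1.68, and in iWAT Fasn lies at −0.46 and Scd1 at −2.75.

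The contrast of iWAT with day 7 was called higher for 5 of the 10 fatty acid synthesis genes and lower for 0, with a median of 0.66 against 0.18 over all genes, where 35.8% and 18.5% of all genes were called. At day 0, 6 of the 10 were called higher, led by Acss2, the acetyl-CoA synthetase (0.87 ± 0.09, adjusted p = 4.63e-06). From day 0 to day 7 all 10 were called higher in WT (median 3.84) and 9 of 10 with the label NFIA-Tg (median 1.58). Over all genes tested, 46.2% and 45.7% were called higher, with medians of 0.09 and 0.05.

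Among the partners that complete elongation and feed electrons to desaturases, in iWAT 3 of 12 were called lower and 1 higher. The lower ones included Cyb5r2, a cytochrome b5 reductase (0.632 ± 0.113 FPKM in NFIA-Tg against 2.69 ± 0.753 FPKM in WT, adjusted p = 0.00659), and the higher one was Hacd3, a dehydratase of the elongation cycle (13.0 ± 2.18 against 8.37 ± 1.39 FPKM, adjusted p = 0.0485). At day 0, 5 were higher, led by Cyb5r2, and 5 lower, led by Hacd4. At day 7, 5 were higher and 6 lower, with the lower count near the share over all genes. There Cyb5r1 was 192 ± 4.01 FPKM with the label NFIA-Tg and 44.6 ± 2.60 FPKM in WT (adjusted p = 1.25e-12), while Hacd4 was 0.892 ± 0.241 against 7.13 ± 0.276 FPKM (adjusted p = 1.42e-10).

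Among 24 transcription factors and SREBP processing proteins linked to these genes, 1 was called in iWAT. It was Ppara, the fatty acid receptor, at 4.72 ± 0.989 FPKM in NFIA-Tg and 2.21 ± 0.845 FPKM in WT (log2 change 0.85 ± 0.22, adjusted p = 0.0445). At day 0, 11 were higher and 5 lower, led by Pparg (1.79 ± 0.05, adjusted p = 6.05e-11) and Mbtps2 (−0.64 ± 0.06, adjusted p = 9.17e-07). At day 7, 7 were higher, near the share over all genes, and 16 lower. Ppara was again the clearest rise (27.3 ± 2.67 against 2.27 ± 0.229 FPKM, adjusted p = 2.62e-12) and Rxra, a partner of PPAR and LXR, the clearest fall (12.2 ± 0.643 against 31.5 ± 1.11 FPKM, adjusted p = 5.47e-11).

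Of the sterol genes that share SREBP factors, 12 of 15 were higher at day 0 and 0 lower, led by Sqle (1.19 ± 0.05, adjusted p = 1.81e-09). At day 7, 9 of 15 were lower, near the share over all genes, led by Dhcr7 (−2.14 ± 0.05, adjusted p = 4.47e-12), and 3 higher, led by Sqle (1.39 ± 0.05, adjusted p = 1.01e-10).

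Enzymes that use the products were mixed. Of the acyl-CoA synthetases and acyltransferases, 2 of 13 were higher in iWAT, led by Mboat7, which places arachidonate in phosphatidylinositol (0.67 ± 0.12, adjusted p = 0.0129). At day 0, 4 were higher, led by Dgat1, and 4 lower, led by Soat1. At day 7, 4 were higher, led by the arachidonate-preferring Acsl4 (79.5 ± 10.9 against 20.7 ± 1.56 FPKM), and 8 lower, led by Acsl1 (152 ± 12.8 against 1020.4 ± 18.03 FPKM). The counts at both days were near the shares over all genes.

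Of 11 peroxisomal genes, 6 were higher at day 0, led by Abcd2. At day 7, 4 were higher, led by Acox3, and 6 lower, led by Abcd2 (2.64 ± 0.374 against 25.4 ± 1.74 FPKM). Both counts at day 7 were near the shares over all genes. Among ceramide enzymes, which take up very long chains, Cers2 was higher (0.54 ± 0.09, adjusted p = 0.00727) and Cers4 lower (−1.14 ± 0.13, adjusted p = 0.00237) in NFIA-Tg iWAT, with 2 higher and 1 lower of 9. At day 0, 3 of 10 were higher, near the share over all genes and led by Cers4, and 2 lower, led by Ormdl1. At day 7, 7 were higher, led by Sptlc3, and 2 lower, led by Sptlc1.

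The genes whose levels ran most like those of each of the 9 were found by Pearson's r of log2(FPKM + 1) across the 18 samples, among 10319 genes. These r are descriptions over 6 groups that share libraries, and they mostly follow the gaps between tissue, day 0 and day 7. For Scd1 the closest were Kcnk3 (r = 0.991), a potassium channel, and Slc12a7 (0.986). Kcnk3 was 19.7 FPKM in WT iWAT, 7.47 FPKM in NFIA-Tg iWAT, 21.3 FPKM in WT day 7 and 30.1 FPKM in day 7 NFIA-Tg (means). For Scd2 they were Fdps, the farnesyl diphosphate synthase (0.977), and Larp4b (0.977), and for Fads3 Crtac1 (0.995) and Adap2 (0.993).

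Fads1 ran most like Atpif1 (0.98) and Socs4 (0.979), and Fads2 like Socs4 (0.992) and Senp1 (0.991). Elovl5 ran most like Rad51ap1 (0.971) and Rnf126 (0.967), Elovl6 like Kdm4a and Cnpy2 (both 0.962) and Elovl7 like Arl6ip1 (0.987) and Dnajb9 (0.986). Elovl1, which varied least, had lower r, with Dglucy (0.922) and Aga (0.903) closest. Among the 9 themselves, Fads1 and Fads2, neighbours in the genome, ran together (r = 0.98). Fads3, the neighbour on the other side of Fads2, had r = −0.91 with each. It was highest in iWAT, where Fads1 and Fads2 were lowest, and the iWAT and culture values were made differently. By genotype, Fads1, Fads2 and Fads3 were all lower by value in NFIA-Tg iWAT and all higher with that label at day 0. At day 7 Fads3 was higher and Fads1 and Fads2 lower.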

How the data were processed

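The deposited files give FPKM per gene and a length, per the file headers. STAR 2.7.8a, StringTie 2.1.1 and mm9 are named, without roles, in the submitters' processing notes. The sources used here give neither the strand setting nor the treatment of reads with several matches. In the culture files the deposited length is an exon length, and FPKM multiplied by it gave whole reads for 100% of the values checked (tolerance 0.01). The check left out values of 0 and those with the most reads, such as Scd1 at day 7. In the iWAT files it is a genomic span, so depth is unknown, and iWAT levels were compared with culture levels only as description. Entries of 1 symbol were summed. limma 3.58.1 (R 4.3.3) with eBayes and a trend was run on log2(FPKM + 1) of genes with at least 1 FPKM in 3 fitted samples: 6 iWAT samples, 12 cultures in 1 fit, and 12 iWAT and day 7 samples for the contrast between them. P-values were Benjamini-Hochberg adjusted over all genes tested. The fits were tested on simulated data. Alternatives were another pseudocount, filter or scaling, no trend, a replicate block, other sample sets, voom on recovered reads and each library left out. The 9 genes and the gene lists were chosen with earlier results of these data known. Named from each list were the called gene with the smallest adjusted p in each direction, or else the most abundant one. A few genes that this rule takes are not reported here. Of the 3 genes most alike to each, with a mean of at least 5 FPKM in a group and without predicted, ribosomal, histone and small RNA genes, the closest 2 are named. Hacd1 to Hacd4 were also matched by older symbols.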

Additional observations from a re-analysis of the deposited data

Results flagged for a closer look

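The genotype difference of 4 genes was not the same in iWAT and at day 7, by limma's test of the contrast between them. It was −4.42 for Scd1, −2.16 for Scd2, −1.03 for Fads3 and −0.43 for Elovl1 on the log2 scale. Scd1, Scd2 and Fads3 had all NFIA-Tg libraries below all WT libraries in iWAT and above them at day 7. The part of reads that Scd2 can share with Scd1 was not tested. The Fads3 difference at day 7 was small, and its call there was lost under several alternatives. The change with differentiation differed between the labelled genotypes for 7 genes, by 0.99 for Scd1, 0.26 for Scd2, −0.58 for Fads1, −0.81 for Fads2, −0.29 for Elovl1, 0.28 for Elovl5 and 0.31 for Elovl7. Elovl7 entered the fit only through the day 7 libraries labelled NFIA-Tg, where it is high, and gave −0.19 with voom, so its value is a description. In both contrasts the level of Nfia at day 7 goes against the label, and the role of that was not tested.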

How the results depend on the processing

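Of 1282 results of the 9 genes under the alternatives, 1201 kept direction and side of the threshold, 49 lost their call, 11 gained one and 21 changed sign. The cause was not tested. The counts include Elovl7, whose day 7 values and changes with differentiation are descriptions. Sign changes were all small. With median-of-ratios scaling they were Fads2 at day 7 (0.00), Fads1 in WT differentiation (−0.01), Fads3 (0.09) and Elovl6 (0.03) by genotype and differentiation, and Elovl5 in iWAT against day 7 (−0.11). With TPM they were Elovl1 at day 7 (−0.07) and Fads1 in WT differentiation (−0.09), and with voom Elovl7 by genotype and differentiation (−0.19). Leaving out a single library gave Elovl1 −0.06 to 0.06 at day 7 and up to 0.02 in WT differentiation, Fads3 up to 0.04 and Elovl6 −0.14 to 0.03 by genotype and differentiation, and Elovl6 −0.22 to 0.05 in iWAT against day 7. Genes called in iWAT were 934 without a filter, 5141 with all 18 samples in 1 fit and 617 to 1262 without a single library (WT replicate 2 left out, 814, WT replicate 3, 617, NFIA-Tg replicate 2, 638, and NFIA-Tg replicate 3, 745), against 1413. With all 18 samples in 1 fit, 7 of the 9 genes were called in iWAT and 5 at day 7, and with 1 library left out 3 to 4 and 5 to 8, Elovl7 counted. TPM scaling moved 2 groups in the order of levels for each of Fads1 (2), Fads2 (2), Elovl1 (2), Elovl5 (2) and Elovl7 (2). Median-of-ratios scaling moved the median of all genes at day 7 from −0.17 to −0.06. Replicate numbers did not pair the samples: same-number deviations correlated at 0.11, 0.115 and 0.007 in iWAT, at −0.079 to 0.17 at day 0 and at −0.059 to 0.085 at day 7. With the replicate block 1282 genes were called in iWAT, 7822 at day 0 and 10136 at day 7, 10239 and 10927 for differentiation, 9027 by genotype and differentiation and 7097 in iWAT against day 7, and Fads1 in iWAT gained a call (adjusted p = 0.0367). The voom fit to recovered reads called 7961 genes at day 0 and 10185 at day 7, against 7911 and 10155. Depth limits Elovl7, with 5 to 19 reads at day 0.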
